A study of Mus musculus with 8 samples.

Results

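The genes of cholesterol synthesis and of fatty acid synthesis were followed in the mouse neuroblastoma cell line Neuro2A (N2A) after stimulation of the cannabinoid receptor CB1R. The members are the enzymes from acetyl-CoA to cholesterol, the enzymes that make, desaturate, elongate and activate fatty acids, and 5 regulators of both pathways. They were picked by gene symbol, with earlier results of these data known. The symbols of the sterol branch were ACAT2, HMGCS1, MVK, PMVK, MVD, IDI1, FDPS, FDFT1, SQLE, LSS, CYP51, TM7SF2, MSMO1, NSDHL, HSD17B7, EBP, SC5D and DHCR7. Those of the regulators were INSIG1, INSIG2, SREBF1, SREBF2 and SCAP, and those of the fatty acid branch ACLY, ACACA, ACACB, FASN, SCD1, SCD2, ELOVL1, ELOVL5, ELOVL6, FADS1, FADS2, ACSL3 and ACSL4. They were matched to the mouse genes regardless of case, and mouse gene names are used from here on. Of 36 symbols, 34 are among the 16974 genes of the expression table: 16 of 18 in the sterol branch, all 5 regulators and all 13 in the fatty acid branch. Hmgcs1 and Mvd were not analysed here. All 34 were listed at each time point and passed the filter on low values, which kept 11311 genes with a mean of at least 1 FPKM (fragment counts corrected for transcript length and library size) over the libraries.

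N2A cells were starved for 16 h in serum-free MEM with 0.1% BSA, and all groups share this starvation. Either HU210, a potent CB1R agonist, was then added at 2 µM, or the same volume of drug-free DMSO, and mRNA was sequenced after 2 h, 4 h, 6 h or 8 h. Each of the 8 conditions is 1 library that pools 2 to 3 experiments on this single line, so there is no replicate of a condition, and the contrast of treatments within 1 hour has neither an error nor a test. The study used this receptor as a trigger of neurite outgrowth, and the comparisons below are HU210 against DMSO and late against early hours.

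The libraries had 11328 to 11444 genes at 1 FPKM or more. Of 14 neuroblastoma and neuronal markers, 12 were listed, among them the noradrenergic factor Hand2 and the neuronal genes Stmn2, Uchl1 and Chgb. Their sum was 939 to 1070 FPKM in the HU210 libraries and 961 to 1023 FPKM in the DMSO libraries, and it was 939 to 1023 FPKM early and 961 to 1070 FPKM late. Uchl1 makes up much of this sum, and of the 10 markers tested, 4 were lower with HU210 by 1.3-fold or more at 4 h and 4 were higher at 6 h, such as Hand2 with log2 differences of -0.52 and 0.53. Their part in the members' differences at those hours was not tested. The neurofilament genes Nefl and Nefm were near 0 at 4 h and not listed at the other hours. Fibroblast markers (2 of 5 listed, led by Dcn) summed to 1.31 to 1.53 FPKM, astrocyte markers (2 of 3) to at most 0.768 FPKM, immune markers (2 of 3) to at most 0.614 FPKM and adipocyte markers (1 of 3) to at most 0.0504 FPKM, and no hepatocyte marker was listed. Between the 2 libraries of a time point, the HU210 to DMSO difference of a gene followed its GC content, with Spearman rho values of 0.15, 0.50, -0.27 and -0.14 across the 11311 genes for the pairs of 2, 4, 6 and 8 h. Genes are not independent replicates, and these values describe the pairs of libraries. Differences between HU210 and DMSO are therefore also given after subtraction of the fitted trend on GC content and transcript length (trend removed).

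Cholesterol is built from acetyl-CoA by way of mevalonate, isoprenoid diphosphates, squalene and lanosterol, and fatty acids are built from the same acetyl-CoA by way of malonyl-CoA. The transcription factors SREBP-1 and SREBP-2 drive both sets of genes. SCAP carries them to the Golgi for cleavage when membrane cholesterol is low, and the INSIG proteins hold SCAP back in the endoplasmic reticulum when it is high. Neurons and neuroblastoma cells need both products for new membrane, including that of growing neurites.

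All members were expressed, on scales that differed widely between enzymes of 1 pathway. By mean FPKM, a level per transcript length, the highest member was Scd2, a stearoyl-CoA desaturase that puts the first double bond into saturated fatty acids, at 330.4 FPKM. Acly, which makes cytosolic acetyl-CoA from citrate, followed at 274 FPKM, and Fasn, the fatty acid synthase, at 265 FPKM. The genes of SREBP-1 and SREBP-2, Srebf1 and Srebf2, had 126 and 115 FPKM, and the highest sterol enzyme, the sterol C4-methyl oxidase Msmo1, had 104 FPKM. The lowest member was Acacb, the acetyl-CoA carboxylase isoform of the mitochondrial surface, at 1.53 FPKM. The median member had a mean of 53.7 FPKM in the sterol branch, 69.0 FPKM among the regulators and 46.8 FPKM in the fatty acid branch, against 12.7 FPKM over all genes tested.

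The sterol branch was lower in the 4 late libraries (6 h and 8 h) than in the 4 early ones (2 h and 4 h), with HU210 and without it, but no single gene passed the adjusted test. In a limma fit with treatment as a covariate, all 16 sterol members had a negative late minus early difference, where 52.2% of all genes tested did. Their median log2 difference was -0.24, against -0.0071 over all genes. The fatty acid branch split about evenly, with 7 members higher and 6 lower and a median of 0.0036, and the regulators had a median of 0.03. With Benjamini-Hochberg adjustment over all genes, limma called 0 of the 11311 genes (0%) and none of the members, and the smallest adjusted p of a member was 0.518. At an unadjusted p below 0.05, limma passed 815 genes (7.21%), and 325 of them (2.87%) were lower late. Of the members, 8 of the 16 sterol genes passed and were lower late, and no regulator and no fatty acid enzyme passed. The hours within a phase and the treatments are not replicates. This p-value sets the phase difference against the spread among the libraries of a phase, after the mean treatment difference. In it the HU210 and DMSO libraries of 1 hour count as separate units. In these bulk libraries fewer cells and less RNA per cell cannot be told apart, and an FPKM is relative to all other mRNA of the library.

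The 8 genes run from the first step, at acetyl-CoA, to the removal of the C4 methyl groups of sterols. Members that act between them, such as Fdps and Lss, and after them, such as Ebp and Dhcr7, did not pass. Acat2, the cytosolic thiolase that joins 2 acetyl-CoA at the first step, had 70.8, 68.2, 61.1 and 57.8 FPKM at 2, 4, 6 and 8 h of HU210 and 68.1, 70.3, 64.5 and 57.7 FPKM with DMSO. Its 4 late libraries were all below its 4 early ones, and the fitted change was -12.9%. Mvk, mevalonate kinase, had 20.2, 21.3, 18.7 and 16.1 FPKM with HU210 and 22.0, 19.6, 17.1 and 17.97 FPKM with DMSO. Again no late library reached an early one, and the log2 difference was -0.24 ± 0.08 (SE).

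Idi1, the isomerase that makes dimethylallyl diphosphate, moved farthest of the 34 members. It had 52.1, 37.5, 32.7 and 34.2 FPKM with HU210 and 49.2, 39.0, 28.6 and 23.6 FPKM with DMSO. In the DMSO libraries it was lower at each later hour, in the HU210 libraries it was lowest at 6 h, and the phases did not overlap. The fitted log2 difference was -0.56 ± 0.14 (SE), a change of -32.3%, and its adjusted p was 0.518 (limma, Benjamini-Hochberg). Fdft1, squalene synthase, the first enzyme that commits isoprenoids to sterols, had 51.5, 45.9, 38.9 and 40.9 FPKM with HU210 and 45.6, 42.1, 40.5 and 33.6 FPKM with DMSO. It was the fourth gene whose phases did not overlap, with a log2 difference of -0.26 ± 0.08 (SE). Acat2, Mvk, Idi1 and Fdft1 are the 4 members of this kind, all 4 of the sterol branch and all lower late, and 2.2% of all genes tested separated in that direction.

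The other 4 genes overlapped between phases in 1 or more libraries. Sqle, squalene epoxidase, had 108, 95.8, 85.7 and 103 FPKM with HU210 and 112, 111, 82.4 and 87.1 FPKM with DMSO, so that the HU210 library of 8 h returned to the early range. Msmo1 had 144, 97.4, 80.2 and 106 FPKM with HU210 and 128, 105, 95.5 and 74.0 FPKM with DMSO. Its HU210 level was lowest at 6 h and its DMSO level at 8 h, and the log2 difference was -0.41 ± 0.16 (SE). Nsdhl, the sterol decarboxylase that acts after Msmo1, had 30.6, 27.3, 25.3 and 28.3 FPKM with HU210 and 31.2, 35.9, 26.7 and 24.0 FPKM with DMSO. Hsd17b7, the keto reductase that completes the removal of the C4 methyl groups, had 23.5, 16.0, 16.0 and 15.4 FPKM with HU210 and 21.8, 20.5, 15.8 and 13.4 FPKM with DMSO. Hsd17b7 thus left its highest level by 4 h with HU210 and by 6 h with DMSO, and its log2 difference was -0.40 ± 0.12 (SE).

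The sterol members that did not pass the unadjusted test had log2 differences from -0.34 to -0.04. Tm7sf2, a sterol C14 reductase, had the largest of them (-0.34 ± 0.21, SE) and the widest scatter. Lss, lanosterol synthase, had -0.25, and Cyp51, the lanosterol demethylase, had -0.18. The smallest were those of Pmvk, phosphomevalonate kinase (-0.04), Ebp, the sterol isomerase (-0.04), and Dhcr7, which makes cholesterol from 7-dehydrocholesterol (-0.08).

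**Figure D1:**
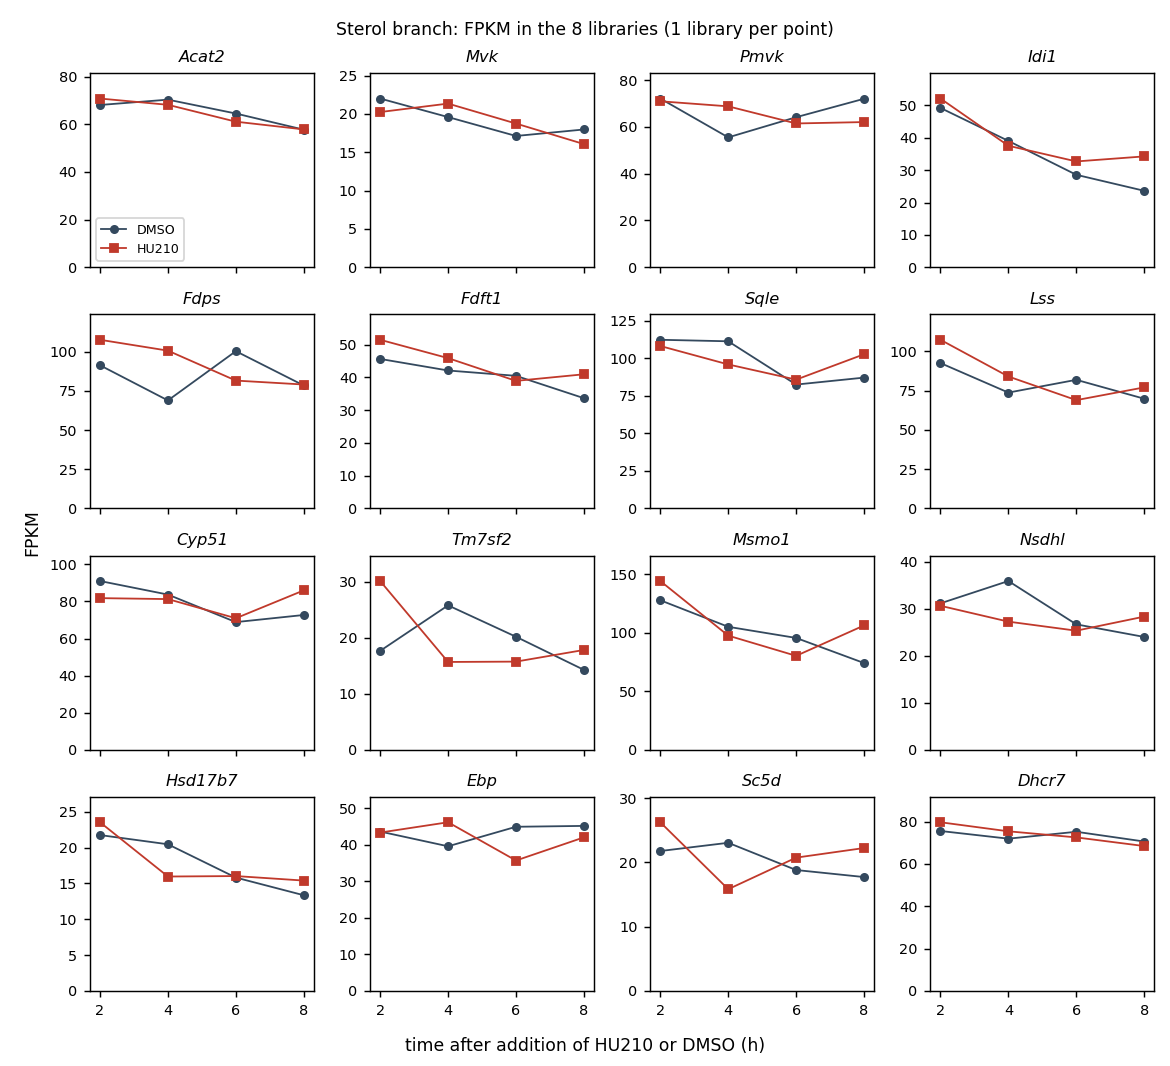
FPKM of the 16 sterol members (vertical axes, each from 0) against hours after addition (horizontal axes), with 1 point per library, HU210 as red squares and DMSO as blue circles. Most genes start high at 2 h and end lower, as Idi1 does from 49.2 to 23.6 FPKM with DMSO. The HU210 and DMSO lines cross in all 16 panels, Tm7sf2 and Sc5d among them.

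The sterol difference was present in both treatments. Late minus early, 15 of 16 sterol members were lower in the HU210 libraries (median log2 difference -0.23) and 13 of 16 in the DMSO libraries (-0.26). The median of all genes was 0.06 and -0.06, and 37.0% of all genes were lower late with HU210 and 62.1% with DMSO. Sc5d, the sterol C5 desaturase, was the exception with HU210 (0.07). Pmvk, Fdps and Ebp were the exceptions with DMSO, at 0.10, 0.16 and 0.11. Library by library, the median sterol member lay 0.22 (HU210) and 0.13 (DMSO) above its own mean of the 8 libraries at 2 h on the log2 scale. At 4 h the medians were 0.04 and 0.06, at 6 h -0.13 and -0.07, and at 8 h -0.07 and -0.18. All 16 members were above their mean in the HU210 library of 2 h and 15 in the DMSO library of 2 h. Only 1 was in the HU210 library of 6 h and 2 in the DMSO library of 8 h. Of all 11311 genes, 4920, 6829, 6869 and 4742 were above their mean in these libraries, in the same order. By the sterol medians, the highest library was thus the earliest in both treatments. The lowest was that of 6 h with HU210 and that of 8 h with DMSO.

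After removal of the GC and length trend, 16 of 16 sterol members were still lower late (median -0.22) and 9 passed an unadjusted p below 0.05, as did 3.92% of all genes in that direction. Without both 4 h libraries, an alternative chosen after seeing the data, 16 of 16 were lower (median -0.26) and 10 passed, with 7.48% of all genes. With 1 library left out at a time, 15 or 16 members were lower, with medians from -0.28 to -0.19. The count at an unadjusted p below 0.05 fell from 8 to 3 without the DMSO library of 8 h, to 4 without the HU210 library of 2 h, and to 5 without the DMSO library of 2 h or the HU210 library of 6 h. It was 7 to 10 without any of the other libraries. The count of all genes lower at an unadjusted p below 0.05 moved too, from 325 to 161, 203, 143 and 384 without these 4 libraries in the same order.

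**Figure D2:**
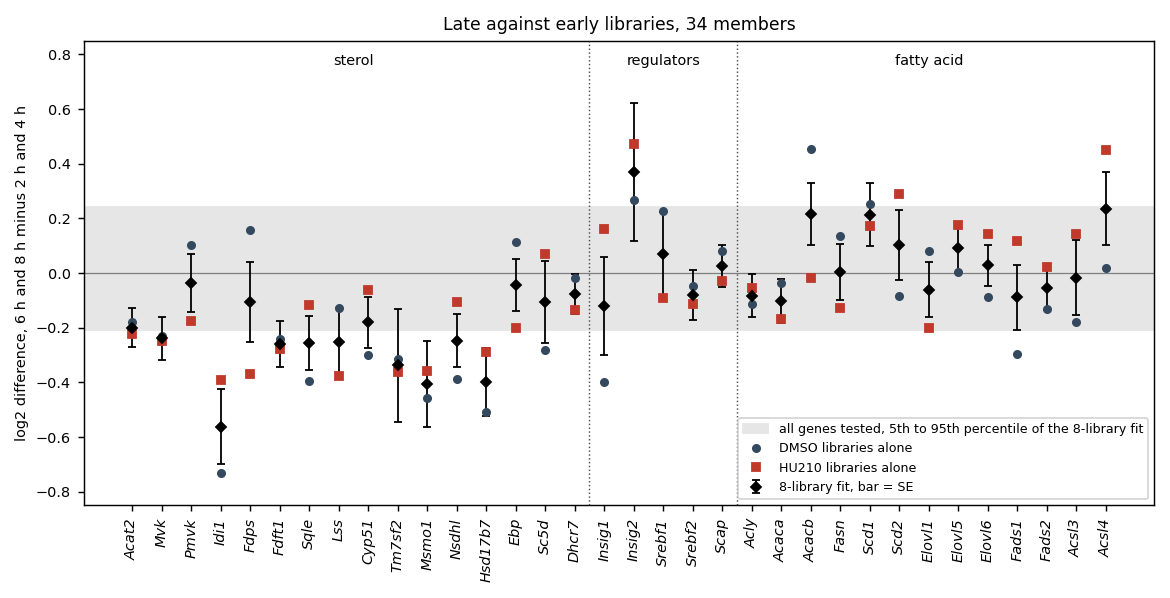
Late (6 h and 8 h) minus early (2 h and 4 h) log2 difference (vertical axis) for each of the 34 members (horizontal axis), with the fit over 8 libraries as black diamonds with SE bars, HU210 libraries alone as red squares, DMSO libraries alone as blue circles and the 5th to 95th percentile of all genes tested as a grey band. The 16 sterol diamonds lie below 0, down to -0.56 for Idi1, and the fatty acid diamonds lie on both sides.

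Promoter sequences of RefSeq (mouse build GRCm38.p6) were set beside these values, in a search planned for the members of all branches. For 28 of the 34 members, with 37 start sites in all, the 250 bases before each start were searched on both strands. The letters TCACNCCAC, a strict core of the sterol regulatory element that SREBPs bind, were found before no member, and before 1.22% of the 8594 tested genes in the promoter table. No match says only that these letters are not in this window. The CCAAT box, a site of the factor NF-Y, was present as CCAAT for 12 of 13 sterol members (92.3%), 4 of 5 regulators and 5 of 10 fatty acid members, against 41.8% of the tested genes. The GC box GGGCGG, a site of Sp1, was present for 12 of 13 sterol members, 5 of 5 regulators and 5 of 10 fatty acid members, against 66.0%. A CCAAT box and a GC box can share bases, which was the case in the Elovl1 promoter alone among the members, and a match describes the sequence and not a bound site.

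For 6 of the 8 genes that passed the unadjusted late test, those with an entry in the promoter table, the 160 bases just before the start are printed to show how the boxes are spaced. They were chosen after their values were seen. Stretches with the sterol regulatory element core were to be printed, but no member held those letters, so the CCAAT box is shown instead. Capitals mark CCAAT, or ATTGG where the box is on the opposite strand, and each stretch runs 5′ to 3′ on the strand of its gene. The stretches are those of Acat2 (chr17:12960726-12960885, minus strand), Mvk (chr5:114444109-114444268, plus), Idi1 (chr13:8885446-8885605, plus), Msmo1 (chr8:64733579-64733738, minus), Nsdhl (chrX:72918361-72918520, plus) and Hsd17b7 (chr1:169969206-169969365, minus).
Acat2: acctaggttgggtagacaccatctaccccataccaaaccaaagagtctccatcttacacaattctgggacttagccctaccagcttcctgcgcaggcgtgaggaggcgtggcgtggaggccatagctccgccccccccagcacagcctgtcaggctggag
Mvk: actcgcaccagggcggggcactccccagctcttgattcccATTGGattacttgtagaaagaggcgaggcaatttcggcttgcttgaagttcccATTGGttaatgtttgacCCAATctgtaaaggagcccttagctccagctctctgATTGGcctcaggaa
Idi1: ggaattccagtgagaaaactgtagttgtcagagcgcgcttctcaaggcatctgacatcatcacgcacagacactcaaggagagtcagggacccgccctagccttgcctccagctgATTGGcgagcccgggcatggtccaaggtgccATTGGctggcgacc
Msmo1: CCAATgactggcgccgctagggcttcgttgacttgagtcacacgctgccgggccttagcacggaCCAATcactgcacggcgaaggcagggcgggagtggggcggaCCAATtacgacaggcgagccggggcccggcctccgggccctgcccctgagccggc
Nsdhl: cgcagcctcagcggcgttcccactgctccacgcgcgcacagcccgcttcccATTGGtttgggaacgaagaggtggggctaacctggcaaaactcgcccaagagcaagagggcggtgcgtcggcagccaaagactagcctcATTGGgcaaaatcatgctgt
Hsd17b7: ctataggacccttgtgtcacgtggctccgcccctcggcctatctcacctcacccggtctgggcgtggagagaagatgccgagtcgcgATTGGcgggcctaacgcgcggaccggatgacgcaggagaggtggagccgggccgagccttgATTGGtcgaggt
Mvk holds 4 boxes in its stretch, Msmo1 3, and Idi1, Nsdhl and Hsd17b7 2 each. The box nearest the start begins 14 bases before it in both Mvk and Idi1, 12 in Hsd17b7, 20 in Nsdhl and 55 in Msmo1. Acat2 holds none and is the 1 sterol member with a promoter entry but no CCAAT in the window searched. Whether the number of boxes went with the late differences was not tested. Acat2 had -0.20, and Ebp and Dhcr7, with 2 boxes each in 1 promoter, had -0.04 and -0.08. In the longer window searched, Mvk held 5 boxes, Msmo1 and Hsd17b7 3 each, and Idi1 and Nsdhl 2 each. Their late differences were -0.24, -0.41, -0.40, -0.56 and -0.25, in the same order. The other members with 3 boxes in 1 promoter were Insig2 and Fasn, with late differences of 0.37 and 0.0036.

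The regulators had no shared direction over time, with 3 of 5 higher late and 2 lower. Srebf2, whose product chiefly drives cholesterol synthesis, had 128, 116, 116 and 109.9 FPKM at 2, 4, 6 and 8 h of HU210 and 124, 106, 121 and 102 FPKM with DMSO. Its late minus early log2 difference was -0.08 ± 0.09 (SE), smaller in size than its SE. Srebf1, whose product chiefly drives fatty acid synthesis, had 131, 124, 99.1 and 144 FPKM with HU210 and 139, 98.4, 129 and 146 FPKM with DMSO. The 2 low libraries of Srebf1 were the HU210 library of 6 h and the DMSO library of 4 h, and the highest of each treatment was that of 8 h.

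Insig1, itself a known SREBP target, had 82.0, 48.6, 71.8 and 69.6 FPKM with HU210 and 85.5, 74.0, 56.6 and 63.6 FPKM with DMSO. Its lowest library was that of 4 h with HU210 and that of 6 h with DMSO, so that the sign of the HU210 to DMSO difference changed between 4 h (log2 -0.60) and 6 h (0.34). Insig2, the second gene for an INSIG protein, had 9.38, 13.1, 21.1 and 11.7 FPKM with HU210 and 12.0, 11.3, 21.1 and 9.48 FPKM with DMSO. Both 6 h libraries stood above the other 6 libraries, which had at most 13.1 FPKM. Its late minus early log2 difference of 0.37 ± 0.25 (SE) did not pass the unadjusted test.

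Scap, the sterol sensor that escorts the SREBPs, was the only member whose HU210 and DMSO libraries did not overlap. It had 42.8, 38.1, 41.0 and 38.2 FPKM with HU210 and 49.7, 45.4, 51.8 and 48.9 FPKM with DMSO at 2, 4, 6 and 8 h. The HU210 library was the lower one at all 4 time points, by log2 differences of -0.21, -0.25, -0.33 and -0.35. Ranges without overlap and with HU210 lower were seen for 0.371% of all genes tested. In the limma fit with time point as a block, the log2 difference was -0.28 ± 0.07 (SE) at an unadjusted p of 0.00681, and its adjusted p was 0.99996 (limma, Benjamini-Hochberg), so Scap did not pass. It was the only member of 34 at an unadjusted p below 0.05, where 148 of all genes (1.31%) were and 78 (0.69%) were lower with HU210, and limma called 0 of the 11311 genes (0%) at an adjusted p below 0.05. The time points stand in for replicates in this fit and are not replicates, so it tests only a difference that the hours share. Without any 1 time point the Scap difference lay between -0.31 and -0.26, and without the GC and length trend it was -0.34. Without the 8 h libraries no member was at an unadjusted p below 0.05, and without the 4 h or the 6 h libraries 3 members were. The count over all genes was 112, 396 and 363 in these settings.

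**Figure D3:**
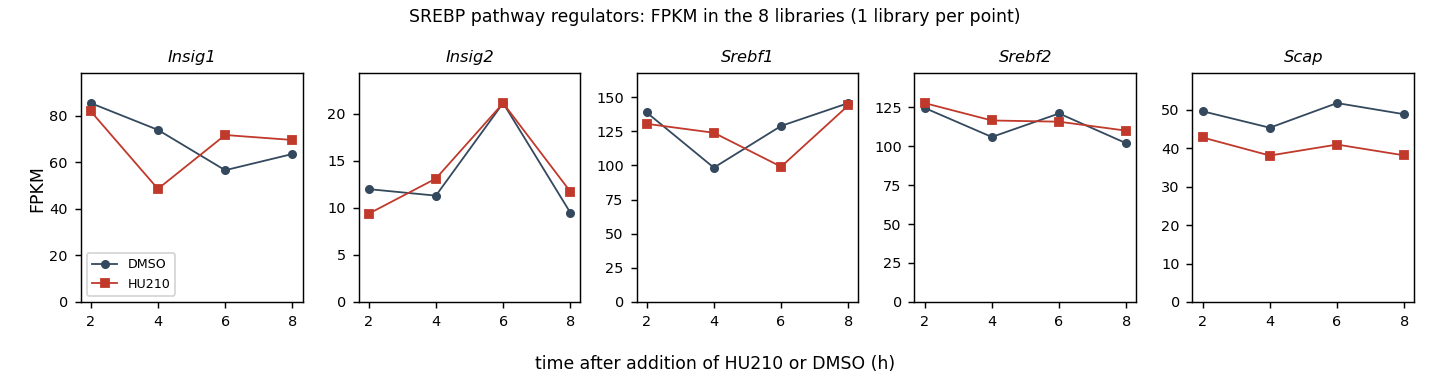
FPKM of the 5 regulators (vertical axes, each from 0) against hours after addition (horizontal axes), with 1 point per library, HU210 as red squares and DMSO as blue circles. The Scap lines do not meet (38.1 to 42.8 against 45.4 to 51.8 FPKM), and those of Insig1, Insig2, Srebf1 and Srebf2 cross. Insig2 peaks at 21.1 FPKM in both 6 h libraries.

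Averaged over the 4 time points, the sterol median lay close to that of all genes. The fatty acid median lay below it, near the 25th percentile of all genes (-0.06), and no fatty acid member passed the unadjusted test. The median log2 difference was 0.01 over the sterol members, of which 11 were higher and 5 lower. It was -0.05 over the fatty acid members, of which 3 were higher and 10 lower. Over all genes it was -0.0033, and 51.6% of them were lower. The sterol values ran from -0.06 for Nsdhl to 0.18 ± 0.11 (SE) for Idi1. Besides Scap, Acaca and Scd1 were lower with HU210 at all 4 time points, which was the case for 3.43% of all genes, and no member was higher at all 4 (4.5% of all genes).

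At single time points the HU210 to DMSO differences of the members are values of 1 pair of libraries. At 2 h, 1 member was higher by 1.3-fold or more (1.49% of all genes were) and 0 were lower (3.91%). It was Tm7sf2, with 30.2 FPKM under HU210 against 17.7 FPKM under DMSO, a log2 difference of 0.74. At 4 h the sign was the opposite, with 15.7 against 25.8 FPKM and a log2 difference of -0.68. Tm7sf2 shares its C14 reductase step with Lbr, the lamin B receptor, whose differences were 0.01 and -0.19 at those hours.

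At 4 h, 2 members were higher (8.96% of all genes) and 8 were lower (19.9%) by 1.3-fold or more. This is the pair of libraries with the strongest trend on GC content, and the share of members past the threshold was close to the share of all genes. The higher ones were Fdps, farnesyl diphosphate synthase (101 against 68.9 FPKM, log2 difference 0.54), and Elovl1, an elongase of saturated very long chains (55.0 against 41.4 FPKM, 0.40). The lower ones were Tm7sf2, Nsdhl (-0.39) and Sc5d (-0.51) of the sterol branch, Insig1 (-0.60), and Scd2 (-0.43), Fads1 (-0.52), Acsl3 (-0.52) and Acsl4 (-0.69) of the fatty acid branch. With the trend removed, 3 were higher (Fdps 0.51, Insig2 0.43 and Ebp 0.40) and 4 lower (Tm7sf2 -0.75, Fads1 -0.51, Insig1 -0.43 and Scap -0.40), against 9.92% and 10% of all genes. Fdps, Tm7sf2, Insig1 and Fads1 thus passed both ways, while Nsdhl, Sc5d, Scd2, Acsl3, Acsl4 and Elovl1 did not.

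At 6 h no member reached 1.3-fold in either direction, where 6.38% of all genes were higher and 1.72% lower. At 8 h, 2 members were higher (4.38% of all genes) and 0 lower (1.44%), and both are among the sterol genes that were lower late. Idi1 had 34.2 FPKM under HU210 against 23.6 FPKM under DMSO (log2 difference 0.52), and Msmo1 had 106 against 74.0 FPKM (0.51). With the trend removed they were 0.41 and 0.44, and Acsl3 was lower by more than 1.3-fold (-0.46), against 2.56% of all genes higher and 2.06% lower. Over the whole sterol branch, 12 of 16 members were higher with HU210 at 8 h, where 62.5% of all genes were, and the median log2 difference was 0.21 against 0.04 over all genes. The median sterol member had -0.04 at 8 h against the averaged log2 level of all 4 DMSO libraries, so the sign differed between these references. The averaged reference is not matched by hour. It holds the DMSO libraries of 2 h and 4 h, with sterol medians of 0.13 and 0.06 against -0.18 at 8 h. The value of -0.04 thus mixes the difference between hours with that between treatments. At 1.5-fold, 1 member was higher at 2 h (0.504% of all genes) and 3 were lower at 4 h (8.7%), and no member passed at 6 h or 8 h. The medians of the sterol branch at 2 h, 4 h and 6 h were 0.08, -0.04 and -0.06, and those of all genes -0.05, -0.08 and 0.06.

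**Figure D4:**
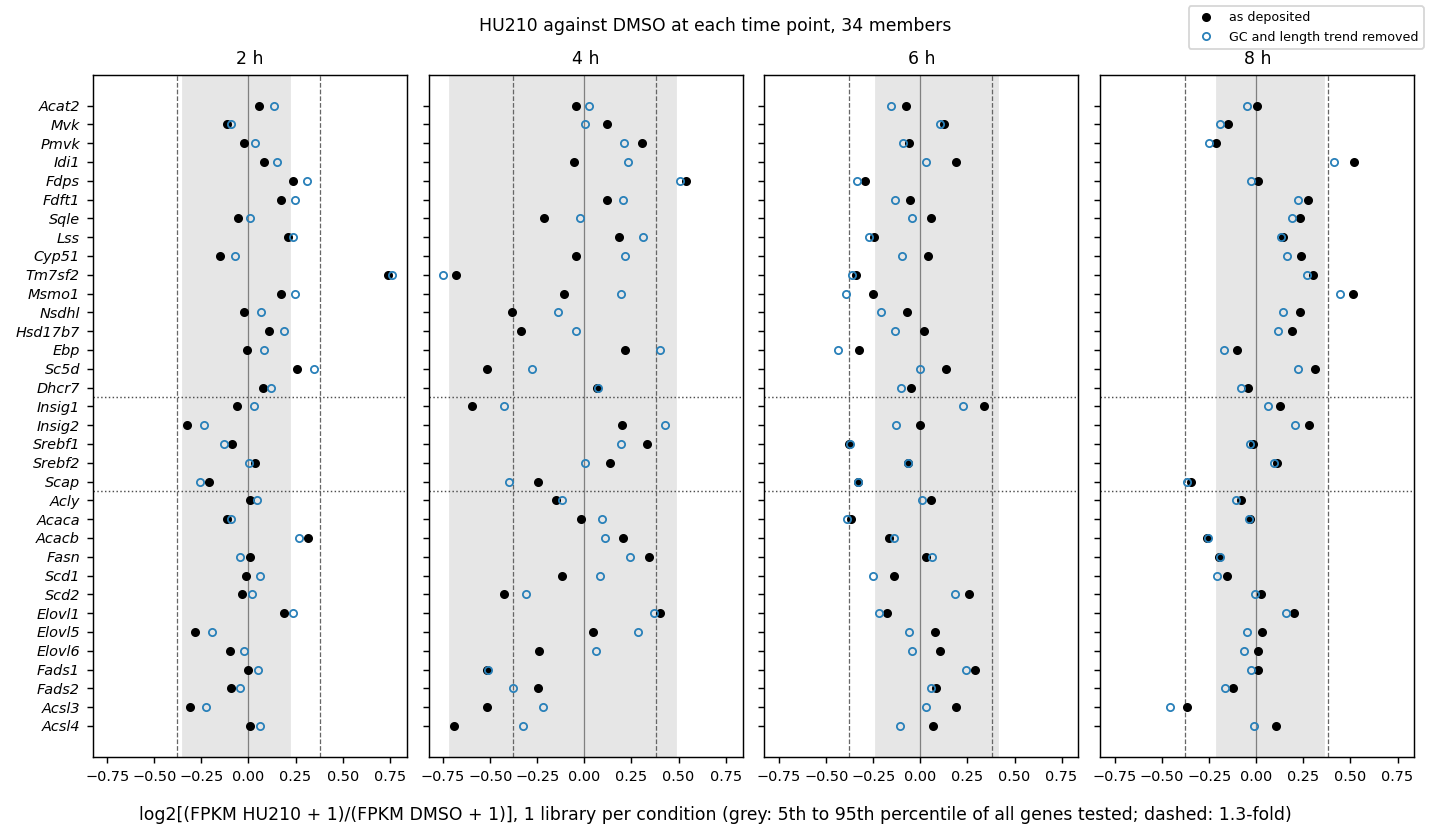
HU210 against DMSO log2 difference (horizontal axes) of the 34 members (vertical axis) at each time point, as deposited (black) and after removal of the GC and length trend (open blue), with the 5th to 95th percentile of all genes tested in grey and 1.3-fold as dashed lines. The grey band is widest at 4 h (-0.72 to 0.49), Tm7sf2 changes side between 2 h and 4 h, and the 4 Scap points are all left of 0.

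Whether the HU210 to DMSO difference changed from early to late hours was tested by an interaction term in limma. With Benjamini-Hochberg adjustment it called 0 of all genes (0%), and the smallest adjusted p of a member was 0.251. At an unadjusted p below 0.05, 1926 genes (17%) passed, 1660 of them (14.7%) upward and 266 (2.35%) downward, and 3 of 34 members passed, 1 upward and 2 downward. Fdps (108 and 101 FPKM with HU210 against 91.4 and 68.9 FPKM with DMSO early, and 81.6 and 79.1 against 100.3 and 78.5 FPKM late) had an interaction of -0.53 ± 0.19 (SE). Insig1 had 0.56 ± 0.21 (SE), and Acacb, with 1.11 to 2.02 FPKM in the 8 libraries, had -0.47 ± 0.15 (SE). Leaving out the 2 h libraries left the 4 h pair as the only early one. Each gene's own error then came only from the 6 h and 8 h pairs, so only sizes are given. Named after their values were seen, Insig1, Acsl4 and Sc5d had 0.83, 0.78 and 0.74, against 0.56, 0.43 and 0.35 over all 8 libraries. The 4 h pair has the strongest trend on GC content, and the trend was not removed in that setting.

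The fatty acid members had no shared direction over time. Acly had 280.1, 269.7, 277 and 253 FPKM at 2, 4, 6 and 8 h of HU210 and 278, 299.6, 266 and 268 FPKM with DMSO, so its highest library was 1.18 times its lowest. Fasn had 275, 287, 276 and 239 FPKM with HU210 and 273, 225, 271 and 274 FPKM with DMSO. The DMSO library of 4 h was the lowest for Fasn and the highest for Acly, and the treatments overlapped for both genes. Acaca, the cytosolic acetyl-CoA carboxylase that makes malonyl-CoA, had 15.8, 17.2, 13.8 and 15.3 FPKM with HU210 and 17.2, 17.4, 18.04 and 15.7 FPKM with DMSO. Its HU210 library was the lower one at each hour, but the ranges overlapped and the averaged log2 difference was -0.13 ± 0.09 (SE). Its mitochondrial counterpart Acacb had a mean of 1.53 FPKM, against 16.3 FPKM for Acaca.

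The desaturases Scd1 and Scd2 carry out the same reaction and differed in level. Scd2 had 342, 249.7, 379 and 338 FPKM with HU210 and 350.1, 336, 316 and 332 FPKM with DMSO, and the HU210 library of 4 h stood below the other 7. Scd1 had 8.25, 5.75, 7.95 and 7.86 FPKM with HU210 and 8.32, 6.33, 8.86 and 8.86 FPKM with DMSO, and both 4 h libraries were below the other 6. Scd1 was lower with HU210 at each time point, by log2 differences of -0.01 to -0.15, with overlapping ranges.

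Among the elongases and the acyl-CoA synthetases, Acsl3 and Elovl1 had the largest averaged differences of the branch. Acsl3, which activates long-chain fatty acids at the endoplasmic reticulum and lipid droplets, had 25.3, 18.3, 26.3 and 21.8 FPKM with HU210 and 31.6, 26.7, 22.9 and 28.5 FPKM with DMSO. It was lower with HU210 at 3 time points and higher at 6 h, and the averaged log2 difference of -0.25 ± 0.13 (SE) did not pass the unadjusted test. Acsl4, which prefers arachidonic acid, had 43.1, 33.0, 48.8 and 55.1 FPKM with HU210 and 42.9, 53.9, 46.5 and 51.2 FPKM with DMSO, and the 4 h pair alone differed by 1.3-fold or more. Elovl1 had 55.0, 55.0, 46.2 and 49.1 FPKM with HU210 and 48.2, 41.4, 52.4 and 42.7 FPKM with DMSO, an averaged log2 difference of 0.15 ± 0.11 (SE). Elovl5 and Elovl6, which lengthen polyunsaturated and C16 fatty acids, lay within 48.7 to 62.7 FPKM and 23.2 to 27.6 FPKM. Fads2, the delta-6 desaturase, lay within 88.0 to 108 FPKM, and Fads1, the delta-5 desaturase, within 35.3 to 52.3 FPKM with its extremes in the DMSO libraries of 6 h and 4 h.

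**Figure D5:**
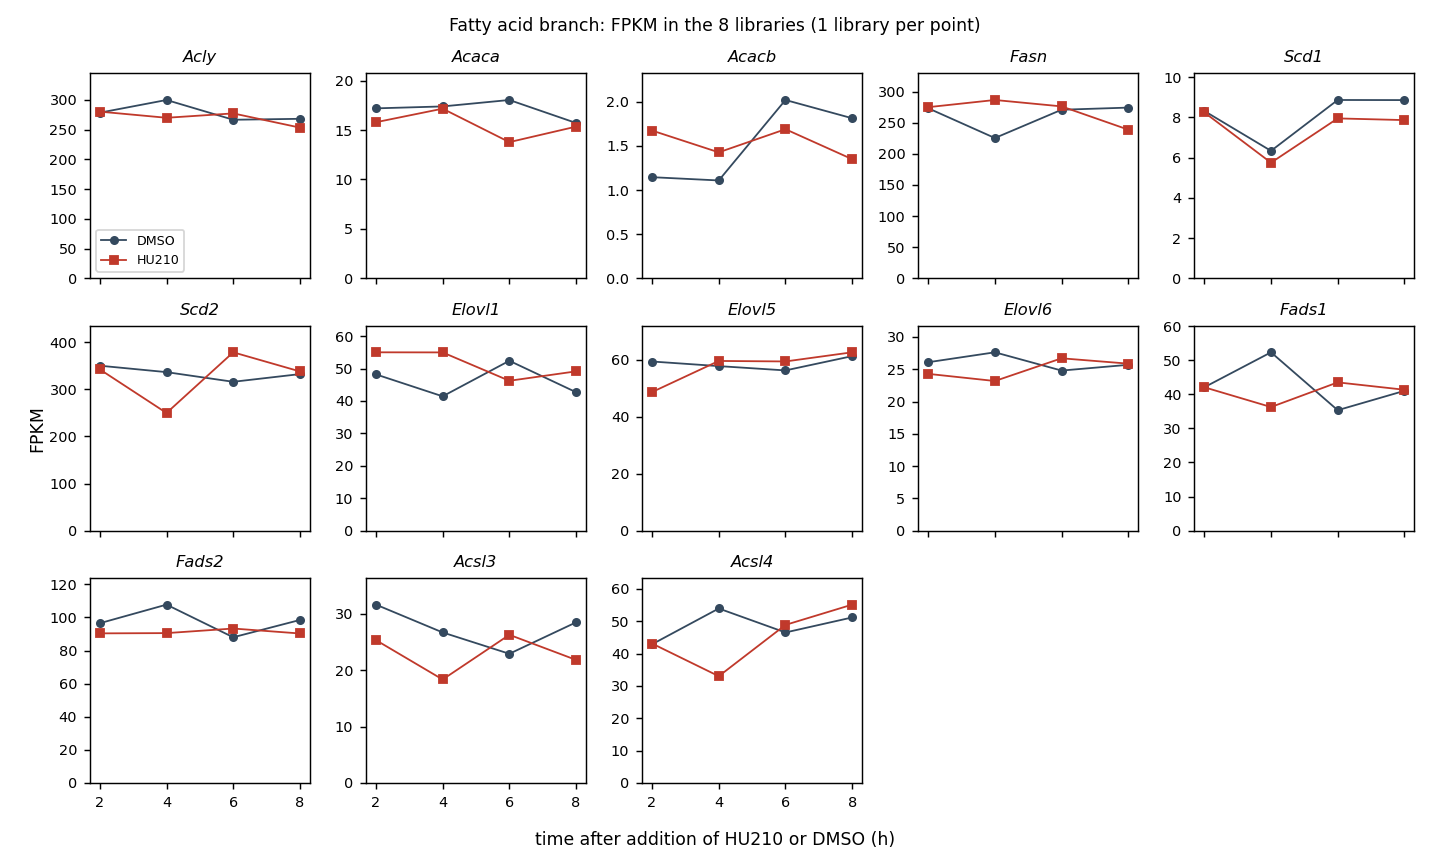
FPKM of the 13 fatty acid members (vertical axes, each from 0) against hours after addition (horizontal axes), with 1 point per library, HU210 as red squares and DMSO as blue circles. The lines of Acly and Elovl6 vary least. Those of Scd2, Fads1, Acsl3 and Acsl4 part at 4 h with HU210 lower, and Acsl4 has 33.0 FPKM with HU210 and 53.9 FPKM with DMSO. Those of Elovl1 part at 4 h with HU210 higher.

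Genes that handle sterols or fatty acids without belonging to the synthesis list had late medians much closer to that of all genes than the sterol branch did. Of 16 genes of sterol transport, storage and sensing, 15 were listed and tested, and 6 of them were lower late, with a median log2 difference of 0.03. The 1 at an unadjusted limma p below 0.05 was Scarb1, an HDL receptor (-0.20). Of 18 further genes of fatty acid supply and elongation, 17 were listed and tested, and 11 were lower late, with a median of -0.04. Those at an unadjusted limma p below 0.05 were Hsd17b12 (-0.23), the keto reductase of the elongation cycle, and Hacd1 (-0.27), a dehydratase of the same cycle. Of all genes, 52.2% were lower late, and 2.87% were so at an unadjusted limma p below 0.05. The summed level of the fatty acid list was 542 to 564 FPKM early and 492 to 534 FPKM late, without overlap. Hsd17b12 had the highest level in that list, with a mean of 150 FPKM. Abca1, the cholesterol exporter, had a mean of 2.69 FPKM and was the 1 gene of the sterol list lower with HU210 by 1.3-fold or more at 2 h (log2 difference -0.68), with -0.38, -0.04 and -0.13 at 4, 6 and 8 h. Its averaged log2 difference was -0.31 ± 0.12 (SE), and it was the only gene of both further lists at an unadjusted limma p below 0.05 for HU210 against DMSO, with an adjusted p of 0.99996 (Benjamini-Hochberg).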

How the data were processed

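mRNA of N2A cells was sequenced in 8 libraries, 1 for each treatment and hour. The authors aligned the reads to mm9 with bowtie 2.1.0 under TopHat 2.0.8, and with samtools 0.1.7, using Ensembl gene models and no new junctions. They computed FPKM with Cufflinks, which was set to scale by the upper quartile, to share out reads with several alignments and to correct for fragment bias. The version of Cufflinks is not given in the sources used here. The deposited values are FPKM plus 1, and 1 was taken off before use. The fold changes, p-values and adjusted p-values of the authors' own comparison, in the same table and in a second table of called genes, were not used. Per the study's methods, each library had its own lane and read totals were similar, but without read counts per gene the counting error of each FPKM is unknown.

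The log2 difference at a time point is log2[(FPKM HU210 + 1)/(FPKM DMSO + 1)], which understates the change of low genes. Genes listed at all 4 time points with a mean of at least 1 FPKM were tested with limma 3.58.1 (R 4.3.3) on log2(FPKM + 1), two-sided, with a mean-variance trend and Benjamini-Hochberg adjustment over all 11311 genes. HU210 against DMSO had time point as a block (3 residual degrees of freedom), late against early had treatment as a covariate (5), and their interaction had time point as a block (2). The libraries come from different time points, and these p-values measure only the spread between them. The steps were tested on simulated data. Tables were made with pandas 2.3.3 and figures with matplotlib 3.10.9. GC content and length came from GENCODE vM1 on mm9, in which all genes tested were found, and their trend was removed by loess (span 0.3, degree 1). Promoters came from RefSeq on GRCm38.p6.

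The members and lists were chosen with earlier results of these data known. Members could all be named, and values in every library were given for the regulators, for Scd1 and Scd2, and for the 3 members of each branch with the highest level or the largest averaged HU210 difference. They were added for the members at an unadjusted p below 0.05 and for Acsl4 after their values were seen. The alternatives were another pseudocount (0.1), no filter or a mean of at least 5 FPKM, centred libraries, removal of the trend, the mean DMSO library as the reference, 1.5-fold, no block, no mean-variance trend, a slope on the hour, each treatment alone, and leaving out libraries or time points.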

Additional observations from a re-analysis of the deposited data

How the results depend on the processing

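The main limits are 1 library per condition, hours that stand in for replicates, and an unknown counting error of each FPKM. The labels give no replicate numbers, so HU210 and DMSO libraries were paired by time point, which was the block in the fit, and without this block limma still called 0 genes at an adjusted p below 0.05, with 91 at an unadjusted p below 0.05. Of the alternatives computed for the counts and medians, 193 were classed as leaving a value in place and 35 as moving it. Values classed as in place could still shift or change sign. All genes past the fold threshold at 2 h went from 610 to 866 with a pseudocount of 0.1. The sterol median at 4 h went from -0.043 to 0.056 with centred libraries. The fatty acid median at 6 h went from 0.069 to -0.014 in that setting. The 131 values for single members cover Scap for HU210 against DMSO and the sterol genes that passed the unadjusted late test. None of them changed sign, and their adjusted p stayed above 0.05. The cause of these moves and shifts was not tested unless the setting names it. All 16 sterol members remained lower late under every setting of the late fit except without the DMSO library of 2 h, the HU210 library of 4 h or the HU210 library of 6 h, when 15 were, and in each treatment alone, when 15 (HU210) and 13 (DMSO) were.

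Genes past 1.3-fold in either direction numbered 610, 3265, 916 and 658 at 2, 4, 6 and 8 h. They numbered 221, 1297, 268 and 195 at 1.5-fold, 399 (2 h) and 410 (8 h) with a mean of at least 5 FPKM, and 874, 462 and 350 at 4, 6 and 8 h against the mean of the 4 DMSO libraries. Members past 1.3-fold numbered 1, 10, 0 and 2. They numbered 6, 5, 1 and 0 against the mean DMSO, 2, 2 and 4 at 2, 6 and 8 h with a pseudocount of 0.1, 6 and 4 at 6 and 8 h with centred libraries, 3 at 6 h with the GC and length trend removed, and 3 and 0 at 4 and 8 h at 1.5-fold. The 3 at 6 h with the trend removed were Msmo1, Ebp and Acaca, all lower, with 282 of all genes. The sterol median was 0.25 at 2 h and -0.039 at 8 h against the mean DMSO, a reference that mixes hours. It was 0.13 at 4 h with the trend removed. The fatty acid median at 4 h was -0.051 with centred libraries and 0.060 with the trend removed, and at 6 h -0.045 with the trend removed.

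The late fatty acid median was -0.026 to 0.061 with 1 library left out, and 0.12 in the HU210 libraries alone. With the trend removed, limma called 1 gene late against early, Dpysl2, named after its value was seen. Leaving out a time point, the interaction called 2 to 1741 genes (1741 without 2 h, 2 without 4 h, 5 without 6 h and 2 without 8 h) and 0 to 3 members (3 without 2 h). Named after their values were seen, these were Gm24289 and Gm26397 without 4 h, Cyb561a3, Gm23105, Gm25588, Gm25776 and Snora64 without 6 h, and Gm23451 and Mir7-1 without 8 h.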
